A study of Drosophila melanogaster with 6 samples.

Results

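The 10 genes described here make up the core of Hedgehog signalling in Drosophila melanogaster: the ligand gene hh, rasp and disp for its modification and release, the glypican gene dally, the co-receptor genes ihog and boi, the receptor gene ptc, the transducer gene smo, the kinase gene fu and the transcription factor gene ci. They were matched by symbol to the array's probe annotation, which named 1 probe set each for 8 of the 10 and none for fu or dally, so those 2 were not analysed here. Of the 8, 7 had enough signal to be tested and ptc did not, among 7974 tests that covered 7010 named genes. The genes were chosen by their role, with the gain and control differences of these same arrays already known, so their own differences are given as a description and carry no test. Gain larvae, 3 samples, came from 1 transgenic line made in the w1118 strain, in which a heat-shock promoter drives a full-length DHR96 cDNA; DHR96 is a nuclear receptor and Hr96 its gene. Control larvae, 3 samples, were w1118 without a transgene. All 6 samples were whole, feeding larvae on yeast that were held at 37.5 °C for 1 h from 3 h after the moult into the third instar, with RNA taken 4 h after the heat. Transgenic larvae without the heat were not analysed here, so effects of the receptor and of the line's own background cannot be told apart.

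Hedgehog is a secreted signalling protein that cleaves itself and receives a cholesterol group in the process; the acyltransferase encoded by rasp adds a palmitate. Dispatched, encoded by disp, releases the lipid-bearing ligand, and glypicans and lipoprotein particles carry it onward. On receiving cells it binds Patched together with Ihog or Boi, which ends the block that Patched places on Smoothened, and the kinase Fused, the kinesin-like protein Costa and Su(fu) then set the activity of the transcription factor Ci. In larvae hh is known for patterning the imaginal discs, and enterocytes of the midgut also make the protein and release it into the blood on lipophorin.

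Values are log2 intensities of oligonucleotide arrays, and a probe set was tested where it reached a floor of 4 on at least 3 of the 6 arrays. Hr96 checked the labels: it lay at 14.73, 14.71 and 14.64 in gain larvae, against 9.47, 9.82 and 9.50 in control larvae. Of all tests, 36 were higher in gain larvae and 277 lower at an adjusted p under 0.05 by limma, a background of 0.451% and 3.47%. Array gain 2 stood apart: its median over all tests was -0.27 from the mean array, and the next lowest, gain 1, was at -0.0038. Control 3 stood apart in pattern: its log2 difference from controls 1 and 2 had an SD of 0.43 and 0.48 over all tests, against 0.20 between those 2, and 0.31 to 0.37 between gain arrays. The labels do not call the samples of a group separate cultures, so the spread between them may be technical.

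The ligand gene hh was lower in larvae with induced DHR96 and differed most among the 7 tested genes. It lay at 4.94, 5.04 and 5.19 in gain larvae, against 6.57, 6.62 and 6.59 in control larvae. All 3 gain arrays were low and all 3 control arrays high, with a gap many times wider than the spread within either group. The log2 difference was -1.54 ± 0.11 (SE, n = 3 per group), which is 2.90-fold lower, and 1.30% of all tests had a larger fall. The gain values were not far above the floor, and with a pseudocount of 16 the hh difference was -1.19. Array gain 2, which stood apart over all tests, was at -0.02 from the mean of the other gain arrays for hh. In RNA of whole larvae, fewer cells that express hh and less hh RNA per cell cannot be told apart.

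**Figure D1:**
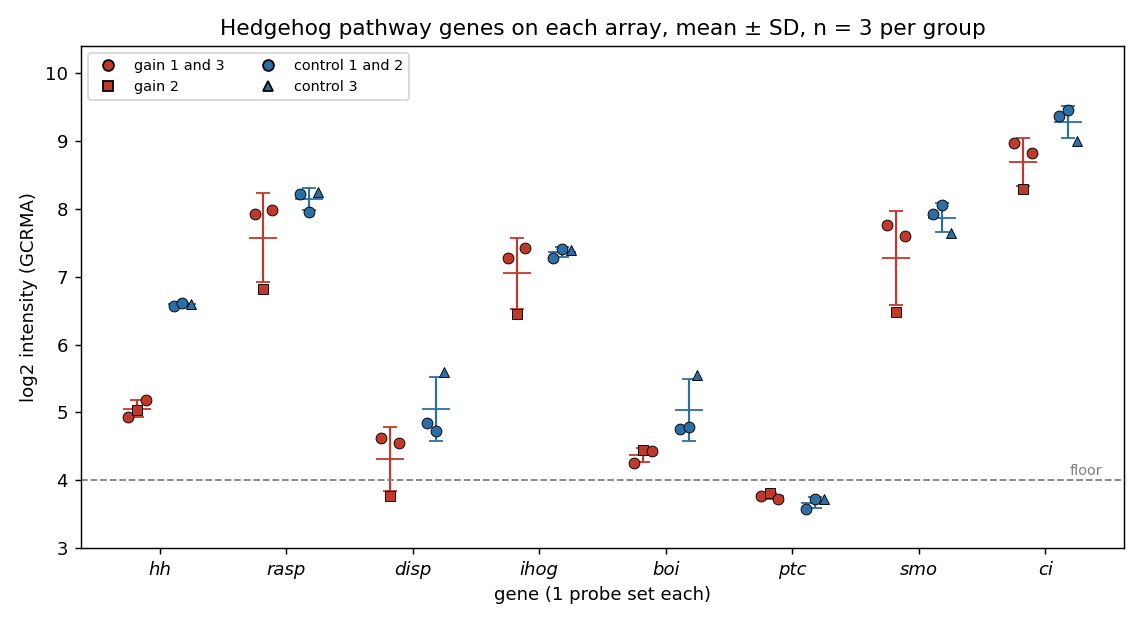
Log2 intensity (vertical axis) of the 8 Hedgehog pathway genes with a probe set, on each array; gain larvae are red and stand left of control larvae in blue, lines give the mean ± SD (n = 3), and the dashed line is the floor of 4. For hh the gain arrays lie between 4.94 and 5.19 and the control arrays between 6.57 and 6.62, while ptc lies below the floor on all 6 arrays and smo, rasp and ihog are lowest on array gain 2.

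Of the genes that make and release the ligand, rasp overlapped between groups. It lay at 7.93, 6.82 and 7.98 in gain larvae, against 8.22, 7.95 and 8.24 in control larvae. Arrays gain 1 and gain 3 were level with the lowest control array, and only gain 2 was clearly lower. The difference was -0.57 ± 0.32 on the log2 scale (SE, n = 3 per group) and -0.19 without gain 2. Transcripts of disp, whose product is a relative of Patched with a sterol-sensing domain, were weak on every array. They lay at 4.63, 3.77 and 4.55 in gain larvae, against 4.84, 4.72 and 5.60 in control larvae. The groups did not overlap, but gain 2 was below the floor and control 3 was higher than the other controls. The measured difference was -0.74 ± 0.32, or -0.66 with gain 2 held at the floor, and it was -0.20 without gain 2 and control 3.

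The co-receptor genes ihog and boi encode related membrane proteins that bind Hedgehog. For ihog the values were 7.28, 6.45 and 7.42 in gain larvae, against 7.28, 7.41 and 7.40 in control larvae. Apart from gain 2, both groups covered the same range, and the difference of -0.31 ± 0.26 (SE, n = 3 per group, log2) became -0.01 without that array. For boi the values were 4.25, 4.44 and 4.43 in gain larvae, against 4.76, 4.79 and 5.56 in control larvae. Every gain array was below every control array, and control 3 was the high one. The boi difference was -0.66 ± 0.23, and -0.40 without control 3, at intensities close to the floor. The receptor gene ptc, which is also a target of the pathway, lay between 3.73 and 3.81 in gain larvae and between 3.57 and 3.72 in control larvae. All 6 values are below the floor, where they have no order, so no level or fold is given for ptc.

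Downstream of the receptor, smo and ci had differences of similar size. The membrane protein gene smo lay at 7.76, 6.48 and 7.60 in gain larvae, against 7.92, 8.05 and 7.64 in control larvae. The groups overlapped, with gain 1 above control 3, and gain 2 was the low array. Its difference was -0.59 ± 0.34 (SE, n = 3 per group, log2), and -0.19 without gain 2. The gene ci encodes the zinc finger protein that acts as activator or, in its shortened form, as repressor of Hedgehog targets. It lay at 8.97, 8.29 and 8.82 in gain larvae, against 9.37, 9.45 and 9.00 in control larvae. The groups did not overlap, although gain 1 and control 3 lay next to each other. Its difference was -0.58 ± 0.21, and -0.38 without gain 2.

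Together, 1 of the 7 tested genes, hh, was called lower and none higher, where 3.47% of all tests were called lower; since the choice of genes used this contrast, nothing is read from that count. In 4 of the 7, hh, disp, boi and ci, all gain arrays lay below all control arrays, as they did in 25.2% of all tests; in none of the 7 did all gain arrays lie above, as they did in 5.49% of all tests. The median difference of the 7 was -0.59, against -0.15 over all tests. Without gain 2 these medians were -0.38 and -0.05. The gap between gain 2 and the mean of the other gain arrays was -1.19 for smo, -1.14 for rasp, -0.90 for ihog, -0.82 for disp and -0.60 for ci, against a median of -0.29 over all tests. Of all tests, 1.98% had a wider downward gap than smo and 2.35% a wider one than rasp, while hh at -0.02 and boi at 0.10 showed no such gap. The part of array gain 2 in these differences was measured only by leaving it out. With control 3 and gain 2 both left out, hh remained at -1.53, ci was at -0.52, boi at -0.43, smo at -0.31 and rasp at -0.13. Calls over all 7974 tests then numbered 631 lower, hh and ci among them, and 129 higher, against 277 and 36 with all 6 arrays. The arrays left out were those that stood apart, and the choice of genes used this contrast, so nothing is read from the ci call.

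**Figure D2:**
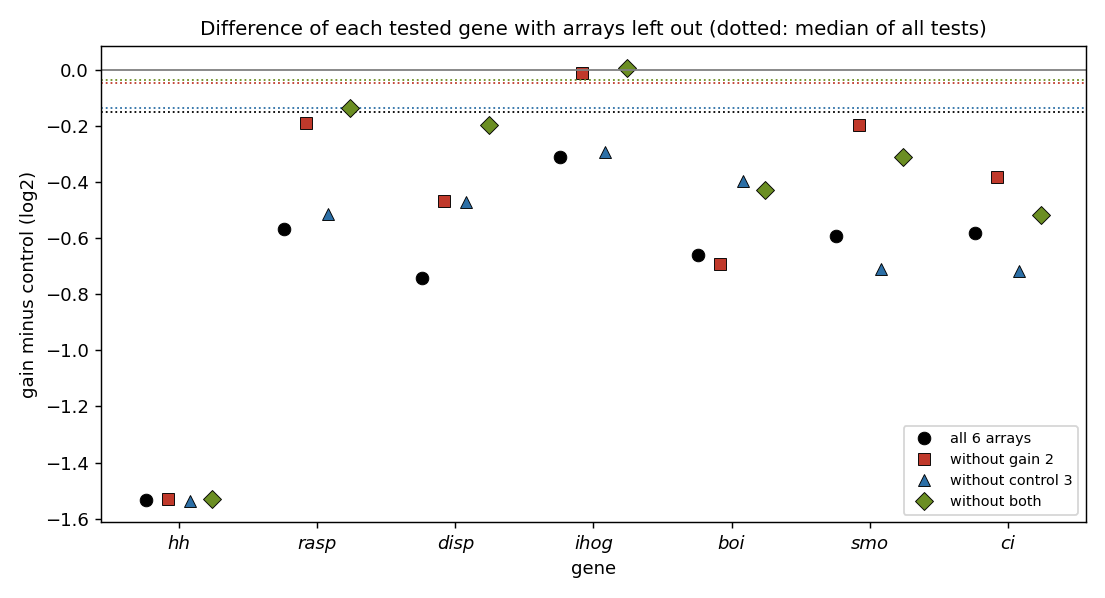
Log2 difference, gain minus control (vertical axis), of the 7 tested Hedgehog pathway genes with all 6 arrays, without gain 2, without control 3 and without both; dotted lines give the median of all tests under each choice. The values of hh lie between -1.54 and -1.53 under all 4 choices, while without gain 2 ihog is at -0.01, against -0.31 with all arrays, and rasp at -0.19, against -0.57.

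No other gene of the pathway was called. Of 45 such genes in 3 lists 33 were tested, 5 stayed below the filter and 7 had no probe set named for them alone. None of the 33 passed limma at an adjusted p under 0.05, where 3.93% of all tests did. At an unadjusted p under 0.05 there were 7, all lower in gain larvae, which is 21.2% of the 33 against 21.1% of all tests. Of the 33, 31 had a negative difference, as did 75.0% of all tests, and their median was -0.38, or -0.34 with values below the floor held at it, against -0.15 for all tests. Without gain 2 the median of the 33 was -0.17.

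Among 7 genes for the ligand's spread through the matrix, the largest differences were those of shf and Sulf1. The gene shf encodes a secreted protein that helps Hedgehog move over heparan sulfate chains. It lay at 6.48, 5.39 and 6.19 in gain larvae, against 7.71, 7.67 and 6.53 in control larvae. Every gain value was below every control value, but control 3 sat next to gain 1. The difference was -1.28 ± 0.41 (SE, n = 3 per group, limma adjusted p = 0.147), and without control 3 it was -1.67 with an adjusted p of 0.0475. With any other single array left out, shf did not pass, at adjusted p from 0.168 to 0.395. The gene Sulf1, for an enzyme that removes sulfate from those chains, lay at 6.33, 4.38 and 5.70 in gain larvae, against 6.65, 6.78 and 6.28 in control larvae. Its difference of -1.10 ± 0.47 did not pass (adjusted p = 0.25) and was -0.56 without gain 2. The glypican gene dlp, a relative of dally, had a difference of -0.18, and the chain-building enzyme genes ttv and botv had -0.51 and -0.11.

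Of 19 signal transduction genes tested, none passed, where 3.93% of all tests did. Of the 19 differences 18 were negative, as were 75.0% of all tests, and the median was -0.30. The largest difference was that of cos, which encodes Costa, the scaffold that holds Ci in the cytoplasm. It lay at 7.25, 6.96 and 7.91 in gain larvae, against 8.34, 8.30 and 8.29 in control larvae. The controls lay within a narrow range and all gain values were below it, with gain 3 nearest. The difference was -0.94 ± 0.24 (SE, n = 3 per group, limma adjusted p = 0.0893), and without gain 3 it was -1.21 with an adjusted p of 0.0272. With any other single array left out, cos did not pass, at adjusted p from 0.13 to 0.281. Roc1a, a RING subunit of ubiquitin ligases, had a difference of -0.56 ± 0.43 (adjusted p = 0.493) that was -0.03 without gain 2. Su(fu), the inhibitor of Ci, had -0.48, and slmb, whose product marks Ci for processing, had -0.40.

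Of 7 tested genes known as Hedgehog targets in imaginal discs none passed, where 3.93% of all tests did. The median of the 7 was -0.41, or -0.34 with values below the floor held at it. The homeobox genes mirr and caup had the largest differences. On the gain arrays mirr lay at 6.15, 3.81 and 5.92, against 7.10, 7.19 and 6.16 in control larvae. The groups were separated only narrowly, by gain 1 and control 3, and gain 2 was below the floor. The difference of mirr was -1.52 ± 0.64 (SE, n = 3 per group, limma adjusted p = 0.245), -0.78 without gain 2 and -0.94 when the probe sets of mirr were averaged. For caup all gain arrays were below the floor and the control arrays lay at 4.13, 4.33 and 4.54. Held at the floor, gain larvae were at least 1.26-fold lower. The limma adjusted p of 0.0662 belongs to the measured values, which include gain values below the floor. The call of caup changed with the scaling of the arrays, to an adjusted p of 0.0462 with median centring and 0.034 with median difference centring. The BMP ligand gene dpp, a target of Ci in the wing, had -0.68, and en had 0.10.

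**Figure D3:**
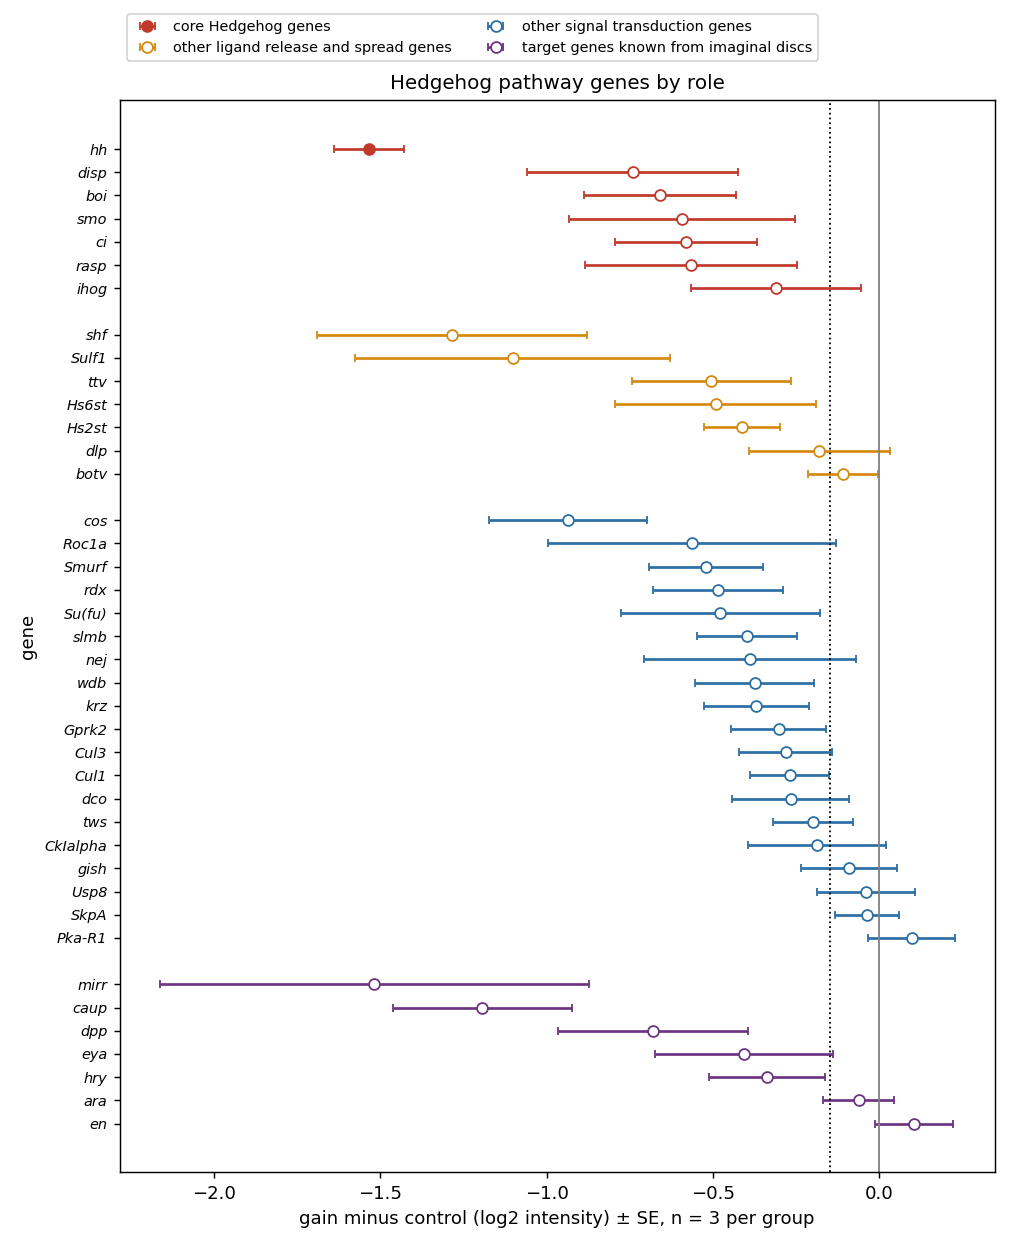
Log2 difference, gain minus control (horizontal axis), with its SE (n = 3 per group) for the 7 tested core Hedgehog genes and 33 other genes of the pathway by role; a filled point is a gene called by limma over all tests, the dotted line is the median of all tests at -0.15 and the solid line is 0. The hh point at -1.54 is the one filled point, and caup and mirr are drawn at their measured values although gain arrays were below the floor.

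Genes of 3 other developmental signalling pathways were set beside these. Of 41 Wingless, BMP and Notch pathway genes 18 were tested, none passed limma and 3 had an unadjusted p under 0.05, against 3.93% and 21.1% of all tests. One of the 18, dpp, is also among the 33 genes above. Their differences ran from -0.72 to 0.15, so none was as far from 0 as hh. The median of the 18 was -0.27, and -0.11 without gain 2. Whether the Hedgehog genes differ from these was not tested.

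Genes for lipoproteins, on which Hedgehog travels in the blood, gave no call by limma among 5, where 3.93% of all tests were called. At an unadjusted p under 0.05 there was 1, LpR2, beside 21.1% of all tests. The gene apolpp, for the lipophorin scaffold, had a difference of -0.08, Apoltp 0.04 and Mtp, for the transfer protein that loads lipid, -0.01. The receptor gene LpR1 had -0.01. The other receptor gene, LpR2, lay at 7.96, 7.35 and 7.96 in gain larvae, against 8.48, 8.65 and 8.22 in control larvae. All its gain values were below its control values, as in 25.2% of all tests. The LpR2 difference was -0.69 ± 0.21 (SE, n = 3 per group, limma adjusted p = 0.127). Of genes that share the sterol-sensing domain with ptc and disp, Npc1a had a difference of -0.38 (adjusted p = 0.192) and SCAP, the sensor of the SREBP pathway, 0.26 (adjusted p = 0.311).

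The genes whose pattern over the 6 arrays came nearest to that of hh were CG5966, CG5162 and GATAe, at Euclidean distances of 0.23, 0.28 and 0.33 between centred log2 values. All gain values of CG5966 were below the floor, so its distance and place rest on values without order. CG5966 and CG5162 belong to the lipase family, and GATAe encodes a GATA factor of the midgut. The 3 were picked for their likeness to hh, so a pattern like that of hh in them is no further result. The GATAe values were 7.93, 7.95 and 8.25 in gain larvae, against 9.37, 9.35 and 9.28 in control larvae. All gain arrays were below all control arrays. The GATAe difference was -1.29 ± 0.12 (SE, n = 3 per group, limma adjusted p = 0.0063), with an adjusted p of 0.0506 without control 1. CG5162 had a difference of -1.44 (adjusted p = 0.00623). With the gain arrays held at the floor, CG5966 was 2.22-fold lower or more. Its limma adjusted p of 0.0045 belongs to the measured difference of -1.51, which includes gain values below the floor.

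Of 6 midgut markers 3 were tested and 3 had no probe set named for them alone. GATAe and cad, a homeobox gene of the posterior midgut, fell and mex1 did not pass, where 3.47% of all tests were called lower. The list was chosen with earlier results of these data known, so nothing is read from that count. The cad values were 9.12, 8.86 and 9.14 in gain larvae, against 10.07, 10.12 and 9.98 in control larvae. Its difference was -1.02 ± 0.12 (SE, n = 3 per group, limma adjusted p = 0.00965), with an adjusted p of 0.0637 without control 1 and 0.0601 without control 2. The enterocyte gene mex1 had a difference of -0.22 ± 0.10 (adjusted p = 0.269). The summed linear intensity of the 3, most of it from mex1, ran from 10185 to 10972 in gain larvae and from 12211 to 13722 in control larvae. The part of the midgut in the hh difference was not tested.

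Of 10 imaginal disc markers 4 were tested and none passed limma, where 3.93% of all tests did. At an unadjusted p under 0.05 there were 3, ap and dac lower and nub higher in gain larvae, beside 21.1% of all tests. The gene ap, a selector of the dorsal wing, had all gain arrays below the floor, against 5.78, 6.35 and 4.55 in control larvae. Its limma adjusted p of 0.0517 was fitted on the measured values, those below the floor included. In tsh, at -0.69, and dac, at -0.39, every gain array was below every control array. In nub, at 0.39, every gain array was above every control array. The genes vg, Dll, ct and eyg stayed below the filter. The summed intensity of the 4 ran from 1217 to 1614 in gain larvae and from 1135 to 1392 in control larvae. Most of this sum was from nub, whose difference was positive, whereas those of ap, tsh and dac were negative. Of 5 foregut and hindgut markers 2 were tested, with dve at -0.88 (adjusted p = 0.195) and fkh at -0.38; byn, which defines the hindgut, stayed below the filter. Their sum ran from 161.5 to 259.7 in gain larvae and from 262 to 442 in control larvae. Of 29 markers in 6 further lists (fat body, trachea and epidermis, neuron, muscle, haemocyte and prothoracic gland) 17 were tested. None of the 17 passed limma, where 3.93% of all tests did. At an unadjusted p under 0.05 there was 1, beside 21.1% of all tests, and the 17 differences ran from -0.79 to 0.45. The part of these tissues in the hh difference was not tested either.

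**Figure D4:**
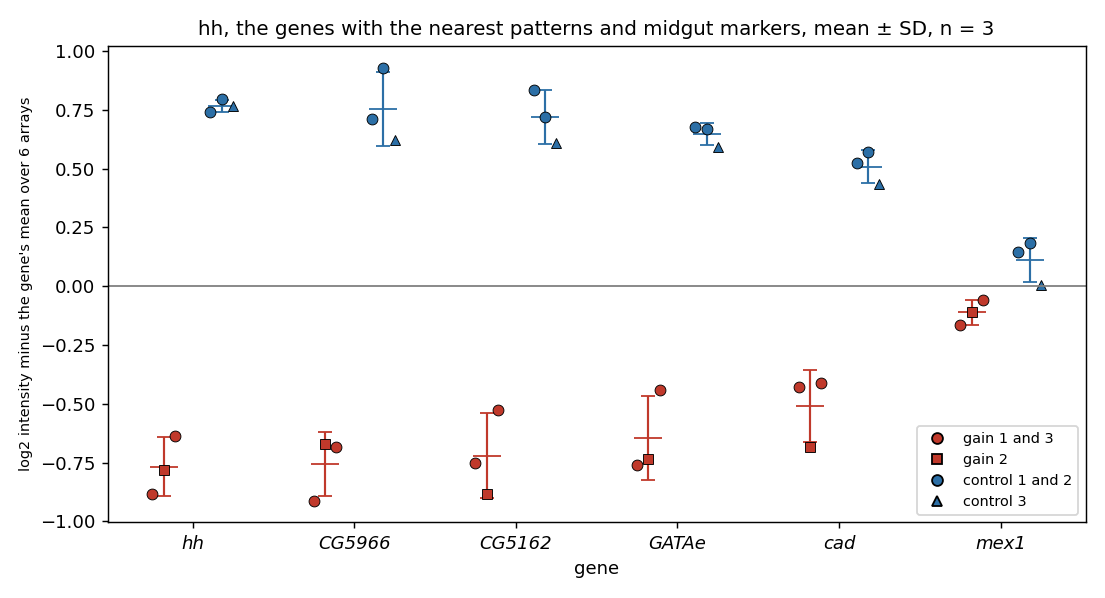
Log2 intensity minus each gene's mean over the 6 arrays (vertical axis) for hh, for the genes with the nearest patterns (CG5966, CG5162 and GATAe) and for the midgut markers cad and mex1; gain larvae are red and left of control larvae in blue, and lines give the mean ± SD (n = 3). CG5966, CG5162 and GATAe were picked for their likeness to hh. The markers cad and mex1, from a list chosen with earlier results of these data known, have differences of -1.02 and -0.22.

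Neighbouring genes were looked at after the values had been seen. In the gene order of the Release 6 reference, hh lies between CG31457 and unk. CG31457 lay at 6.72, 6.73 and 6.84 in gain larvae, against 6.62, 6.38 and 6.35 in control larvae, and unk, for a zinc finger protein, at 8.13, 7.38 and 7.89 in gain larvae, against 6.93, 7.24 and 7.16 in control larvae. In both neighbours every gain array lay above every control array, as in 5.49% of all tests, whereas for hh every gain array lay below. A link to the hh difference was not tested. Their differences of 0.32 and 0.69 did not pass limma (adjusted p = 0.187 and 0.132). Within 4 genes on each side, Rassf, at -1.48 ± 0.41, and Irk1, at -0.61 ± 0.17 (SE, n = 3 per group), did not pass either (adjusted p = 0.109 and 0.111). CenB1A, at -0.13, and CG31365, at -0.11, lie nearer to hh than Rassf and overlapped between groups. VhaAC39-2 and CG13829 were not tested.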

How the data were processed

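RNA of whole larvae was measured on 6 one-colour oligonucleotide arrays, 3 gain and 3 control, with groups taken from the labels. The authors deposited linear intensities, and the submitters' processing notes name GCRMA as the method; its version, the scanner settings and any genome build were not given in the sources used here. Log2 was taken with no pseudocount. Of 18952 probe sets, 8395 reached log2 4 on at least 3 arrays, and the brightest per gene left 7974 tests. Symbols came from the platform annotation, updated by gene ID to a Release 6 reference table (13544 of 13647 probe sets with 1 gene matched). That table served for symbols and gene order only. Gain was compared with control by limma 3.58.1 in R 4.3.3 (lmFit, eBayes, no covariate), with Benjamini-Hochberg adjustment over all tests and calls under 0.05. Where a whole group lay below 4, the fold is a bound against that floor. The fit was tested on simulated data. Precision is limited by the number of arrays.

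The core genes and all lists were chosen with earlier results of these data known. Named were the core genes, the 2 largest differences per pathway list and any called gene, all lipoprotein and sterol-sensing genes, and the 3 patterns nearest to hh; further genes complete a list or a marker set. Alternatives were a floor of 6 or no filter, quantile normalization, median centring over all probe sets, median difference centring (which removes an array's median deviation from the mean array), the mean of probe sets, a pseudocount of 16, a block for the replicate number, each array left out, and control 3 with gain 2 left out. Averaging controls 1 and 2, whose log2 difference had an SD of 0.20 against 0.31 to 0.48 for other pairs within groups, was added after seeing the data. Figures were made with Matplotlib 3.10.9 in Python 3.11.15.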

Additional observations from a re-analysis of the deposited data

How the results depend on the processing

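As a description, since the choice of genes used this contrast, the hh difference ran from -1.63 to -1.19 under 16 alternatives. The count of core genes called, 1 with all arrays, stayed at 1 except without control 3 and gain 2, where ci made it 2. The count of other pathway genes called was 0 of 33, but 1 with median centring and 1 with median difference centring (caup both times). With single arrays left out it was 0 to 1. Without control 3 and gain 2 it was 3 of 33 (shf, mirr and Smurf). Over all 7974 tests 631 lower and 129 higher calls were then made, so nothing is read from the 3 or from the ci call. The median difference of the other pathway genes, -0.38, was -0.13 with quantile normalization, where that of all tests was 0.04. With single arrays left out it ran from -0.44 to -0.17, and that of the core genes from -0.75 to -0.38. The ihog difference reversed to 0.0092 without control 3 and gain 2. Over all tests, 277 calls were lower and 36 higher. These numbered 85 and 17 with no filter, which tests more probe sets, 631 and 129 without control 3 and gain 2, and 40 and 13 with controls 1 and 2 averaged. Higher calls numbered 170 with quantile normalization and 128 with median difference centring, beside 281 and 349 lower. With single arrays left out, lower calls ran from 27 (without control 1) to 374 and higher ones from 12 to 51; there were 45 and 14 without control 2 and 116 and 19 without gain 1. For these shifts the cause was not tested. Deviations of same-numbered arrays correlated at 0.21, 0.03 and 0.37, and not every array correlated best with its own number, so the numbers were not taken to pair the samples. With the replicate number as a block, 217 calls were lower and 41 higher, and hh and no other Hedgehog pathway gene was called. Signal near the floor limits disp, boi, ptc and caup. Low gain values limit the fold of hh, whose difference was -1.19 with a pseudocount of 16.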
